A study of Mus musculus with 4 samples.

Results

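Transcripts of the glycolytic enzymes and of genes induced by low oxygen were examined in 4 tumors. The 39 genes were taken from a list of 17 glycolytic enzymes and 22 other genes of glucose handling and the hypoxia response, and each gene was represented by its brightest probe set among those annotated with that gene alone. Such a probe set was found for 34 of the 39 genes, out of 12393 genes on the array. The genes Gpi1, Eno1, Pfkfb4, Bnip3l and Ankrd37 were not analysed here, Bnip3l because its 3 probe sets also carry the name of a pseudogene. Gapdh was read only by control probe sets of the array and was not tested, and Slc16a3, Adm and Car9 were too dim for the test. This left 30 tested members (14 glycolytic enzymes and 16 others) among 7846 tested genes.

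The p62-EGFP group held 2 tumors whose cells carried a fusion of p62, which Sqstm1 encodes, with the green fluorescent protein EGFP, and the EGFP group held 2 tumors whose cells expressed EGFP alone. All 4 tumors grew from iBMK cells, an immortalized line of baby mouse kidney epithelium, that were Atg5-/-, so that autophagy was disabled, and carried Bcl-2, a protein that blocks apoptosis. Tumors were raised by placing the cells under the skin of nude (NCR Nu/Nu) mice, which lack T cells and keep macrophages and other innate immune cells. The mice were given no treatment and their ages are not in the labels. The 2 tumors of a group are described as parallel tumors of isogenic lines, and the labels do not say whether they came from separate mice or cultures, so the p-values measure only the spread between these tumors. The comparison asks how excess p62 alters transcripts in tumors that cannot clear it by autophagy. Signals are MAS5 values scaled to a common mean, in arbitrary units, and the number of arrays limits their precision.

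Sqstm1, checked first as the overexpressed gene, read 1433 and 1688 in p62-EGFP tumors 1 and 2, against 976 and 1156 in EGFP tumors 1 and 2 (limma log2 difference 0.54, adjusted p = 0.235). Sqstm1 lies on chromosome 11, whose other 696 tested genes had a median log2 difference of 0.30. Whether this probe set detects the transgene is not known. The probe sets of Atg5 and Bcl2 do not check the labels, since where they lie relative to the deleted part and the transgene is not given. Of 5 epithelial genes (Krt8, Krt18, Krt19, Cdh1 and Epcam, a list added after the values were seen), 5 were bright enough to be tested. Their summed signal was 1429 and 2089 in the p62-EGFP tumors, against 1445 and 686 in the EGFP tumors, and 2 of the 5 had the groups apart, higher in p62-EGFP (background 26.4% of all tested genes). EGFP tumor 2 stood apart from the other 3: the summed signal of 13 macrophage genes was 2438 and 2500.5 in the p62-EGFP tumors, against 1347 and 11161 in the EGFP tumors. In the mean all 12 tested macrophage genes were lower in p62-EGFP, and all 12 overlapped. In a bulk tumor, fewer cells of a type and less RNA per cell cannot be told apart.

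Glycolysis splits glucose into pyruvate, and cells that make lactate from it regenerate the cofactor that keeps the pathway running without oxygen. When oxygen is plentiful, prolyl hydroxylases mark the subunit HIF-1alpha for destruction. When it is scarce, HIF-1alpha accumulates, pairs with ARNT and binds short DNA elements in genes for glucose uptake, glycolysis, lactate export, blood vessel growth and mitochondrial turnover. Many solid tumors express this programme, and the abundance of HIF-1alpha is set mainly at the level of the protein.

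Most of these genes read higher in the p62-EGFP tumors, by moderate amounts, and no member passed the test. The log2 difference was above 0 for 23 of 30 members (76.7%, against 51.7% of all tested genes) and below 0 for 7 (48.3% of all tested genes). The groups were apart with p62-EGFP the higher for 17 of the 30 (56.7%, against a background of 26.4% of all tested genes), and with p62-EGFP the lower for 2, Pfkp and Egln1 (background 22.1%). At an adjusted p of 0.05, 0 of 30 members passed (limma, Benjamini-Hochberg over 13576 probe sets), against 0.0884% of all probe sets and 0.051% of all genes. At an unadjusted limma p of 0.05, 9 of the 30 read higher (30.0%, background 8.5%) and 0 read lower (background 6.3%). The 9 were Pfkl, Pfkm, Aldoc, Pgk1, Ldha, Egln3, Bnip3, Ndrg1 and Mif, with adjusted p-values from 0.179 to 0.343.

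**Figure D1:**
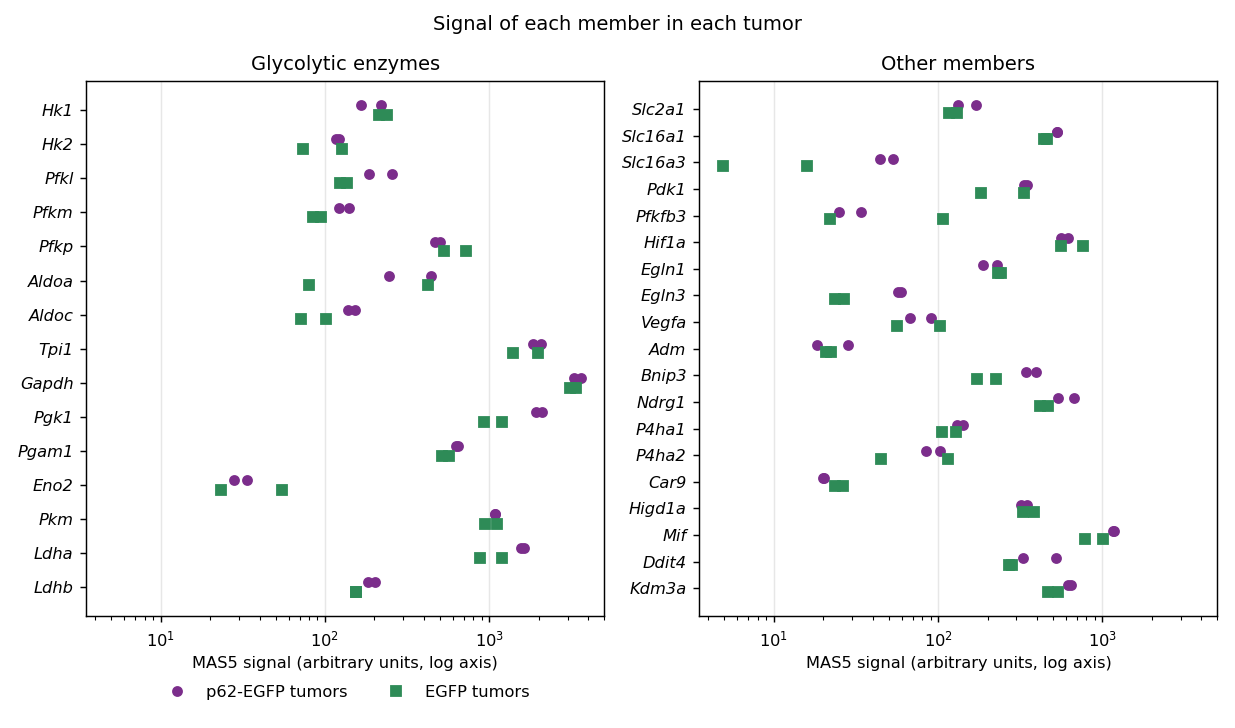
MAS5 signal on a log axis of the 34 measured members, 1 point per tumor, with p62-EGFP tumors as purple circles above EGFP tumors as green squares; enzymes are on the left in pathway order and the other members on the right. Pgk1, Ldha, Egln3, Bnip3 and Slc16a3 show both p62-EGFP tumors to the right of both EGFP tumors, and Aldoa and Pfkfb3 show EGFP tumors far apart.

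These calls depended on which tumors entered the fit. Without EGFP tumor 1, 11 of 30 members passed with higher signals (limma, adjusted; background 11.2% of 7865 genes) and 2 with lower signals, Pfkp and Pfkfb3 (background 11.0%). Those with higher signals were Pfkl, Aldoc, Tpi1, Pgk1, Ldha, Slc16a3, Pdk1, Egln3, Bnip3, P4ha2 and Mif. Slc16a3 was bright enough to be tested in that fit and Eno2 was not. For Slc16a3 and Egln3, EGFP tumor 2 lay below the cut of the filter on dim probe sets. Both genes were tested there only through their p62-EGFP values, which favours calls with higher signals. The same holds for Egln3 in the fit without EGFP tumor 2, since EGFP tumor 1 also lay below the cut. Pfkfb3 passed the filter only through its high value in EGFP tumor 2, which favours a call with lower signals. It was too dim to be tested without that tumor. Without EGFP tumor 2, 5 of 29 members passed with higher signals, Aldoa, Pgk1, Ldha, Egln3 and Bnip3 (background 5.33% of 7811 genes), and 0 with lower signals (background 4.58%). At an unadjusted limma p of 0.05, 1 member read lower in that fit (background 14.2%). Both fits without an EGFP tumor take their spread from the p62-EGFP pair alone, assuming that the lone EGFP tumor varies in the same way. Without p62-EGFP tumor 1 or tumor 2, 0 members passed (background 0.0%), and at an unadjusted limma p of 0.05 4 members read higher without tumor 1 (background 2.23%) and 2 without tumor 2 (background 2.06%). Pgk1, Ldha, Egln3 and Bnip3 appear in both lists from the fits without an EGFP tumor. Their log2 differences were 0.74, 0.41, 0.90 and 1.03 without EGFP tumor 1, and 1.10, 0.84, 0.79 and 0.67 without EGFP tumor 2. These fits share the p62-EGFP pair and are not independent, and the share of all genes found in both was not counted.

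The 4 members with the smallest p were Pgk1, Egln3, Bnip3 and Ldha. Pgk1, phosphoglycerate kinase, carries out the first ATP-yielding step of glycolysis. It read 2108 and 1930.0 in p62-EGFP tumors 1 and 2, against 930.0 and 1204 in EGFP tumors 1 and 2. The mean was 1.89-fold higher (2019 ± 126 against 1067 ± 194, SD, n = 2 each), with a log2 difference of 0.92 (SE 0.15, adjusted p = 0.179). Pgk1 lies on the X chromosome, whose other 244 tested genes had a median log2 difference of 0.04.

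Egln3, a prolyl hydroxylase that HIF itself induces, read 56.8 and 59.6 in the p62-EGFP tumors, against 26.8 and 23.7 in the EGFP tumors. The groups were well apart, and the tumors within each group were close to each other. The log2 difference was 0.85 (SE 0.19, adjusted p = 0.219). Both EGFP values lay below the cut of the filter on dim probe sets, which Egln3 passed through its p62-EGFP values. Without that filter its limma adjusted p was 0.308. Its second probe set was too dim to be tested, at 19.6 and 25.4 against 9.8 and 9.3. Bnip3, a mitochondrial protein that promotes the clearance of mitochondria in hypoxia, read 342 and 396 against 226 and 172, and its mean was 1.85-fold higher (log2 difference 0.85, SE 0.19, adjusted p = 0.219). Ldha, the lactate dehydrogenase subunit that favours the making of lactate, read 1638.5 and 1553 against 883 and 1193. Its lowest p62-EGFP tumor stood above its highest EGFP tumor, and the mean was 1.54-fold higher (log2 difference 0.63, SE 0.16, adjusted p = 0.235).

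The promoters of these 4 genes are printed to show where the core of the HIF-binding element occurs upstream of the members with the smallest p. Each is the 250 bases before the gene's start in RefSeq (GRCm38.p6), on the gene's own strand, and capitals mark every ACGTG or GCGTG on either strand (read as CACGT or CACGC on the opposite one).
Pgk1, chrX:106186850-106187099, plus strand: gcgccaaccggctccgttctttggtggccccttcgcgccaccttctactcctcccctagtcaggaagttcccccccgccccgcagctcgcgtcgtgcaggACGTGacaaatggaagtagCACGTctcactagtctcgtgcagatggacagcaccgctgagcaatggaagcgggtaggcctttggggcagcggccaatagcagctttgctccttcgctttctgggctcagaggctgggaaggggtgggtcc
Egln3, chr12:54203875-54204124, minus strand: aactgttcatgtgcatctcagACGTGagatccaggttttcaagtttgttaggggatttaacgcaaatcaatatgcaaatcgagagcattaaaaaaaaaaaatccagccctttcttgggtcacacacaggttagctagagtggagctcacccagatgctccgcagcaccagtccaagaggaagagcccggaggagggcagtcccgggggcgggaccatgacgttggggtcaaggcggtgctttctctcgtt
Bnip3, chr7:138909507-138909756, minus strand: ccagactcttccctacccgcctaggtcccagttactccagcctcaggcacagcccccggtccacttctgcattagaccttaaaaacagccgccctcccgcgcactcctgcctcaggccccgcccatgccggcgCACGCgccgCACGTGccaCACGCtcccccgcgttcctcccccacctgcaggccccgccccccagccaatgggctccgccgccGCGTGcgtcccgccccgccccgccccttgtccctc
Ldha, chr7:46845554-46845803, plus strand: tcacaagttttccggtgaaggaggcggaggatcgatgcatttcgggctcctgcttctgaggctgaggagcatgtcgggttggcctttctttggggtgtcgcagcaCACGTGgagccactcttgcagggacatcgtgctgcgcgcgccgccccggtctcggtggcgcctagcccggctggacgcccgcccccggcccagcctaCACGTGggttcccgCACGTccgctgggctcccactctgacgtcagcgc
Upstream of Pgk1 there were 2 matches, 150 and 131 bases before the start, and upstream of Egln3 there was 1, at 229 bases. Bnip3 had 5 matches in 4 separate runs and Ldha 5 in 3 runs, because the palindrome CACGTG, also known as the E-box of other factors, counts on both strands. It occurred 1 time upstream of Bnip3 and 2 times upstream of Ldha. For Ldha the table holds 2 start sites, and the first was used.

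At least 1 match stood in the 250 bases upstream of 29 of the 37 members that RefSeq's promoter table lists (78.4%), against 38.6% of all 27025 listed genes. The share was 64.7% for the 17 glycolytic enzymes and 90.0% for 20 other members. Every match holds a CG pair, and the members' windows were richer in such pairs, with a median of 14 CG pairs against 6 in all genes. Slc16a1 and Ankrd37 had 4 matches each, and Hk1, Gpi1, Aldoa, Tpi1, Eno2, Pkm, Mif and Vegfa had 0 in these windows. A match is only a run of letters and was not tested for binding.

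**Figure D2:**
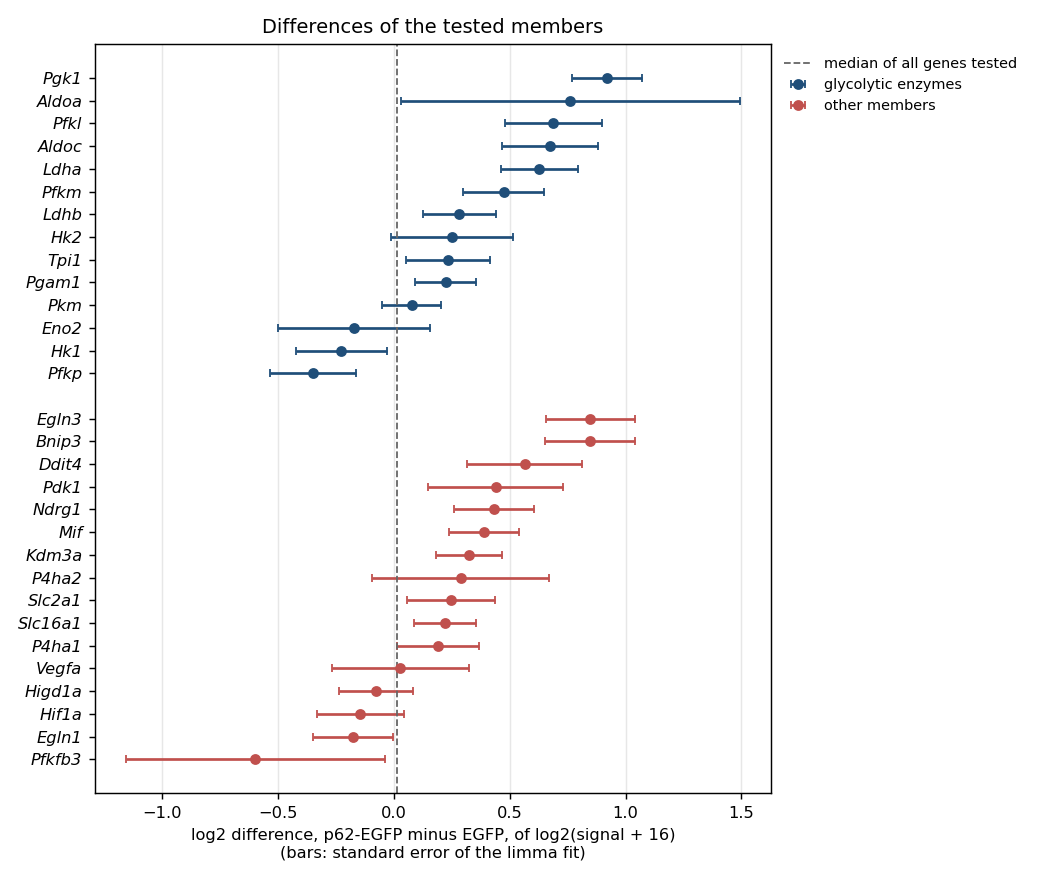
Log2 difference (p62-EGFP minus EGFP) of each tested member with the standard error of the limma fit as bars, with enzymes in blue above the other members in red; the dashed line is the median of all tested genes, 0.01. Most points lie to the right of the line, with Pgk1 at 0.92 and Pfkfb3 at -0.60 as the ends of the range, and the bars of Aldoa and Pfkfb3 are the longest.

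The upper part of glycolysis traps glucose and commits it to breakdown. The hexokinases, which phosphorylate glucose, overlapped between the groups in their brightest probe sets. Hk1 read 167 and 220.5 in the p62-EGFP tumors, against 240.2 and 214 in the EGFP tumors, and Hk2, the form that HIF induces, read 121 and 117 against 73.4 and 128. The second probe set of Hk1 had the groups apart, at 68.0 and 97.2 in the p62-EGFP tumors, against 126 and 104 in the EGFP tumors (log2 difference -0.42, SE 0.22, adjusted p = 0.433). EGFP tumor 1 was the lowest of the 4 for Hk2 and EGFP tumor 2 the highest. Without EGFP tumor 1 the log2 difference of Hk2 turned to -0.09.

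Phosphofructokinase, the main control point of the pathway, is built from 3 kinds of subunit, and they did not share a direction. The liver-type subunit Pfkl read 185 and 257 in the p62-EGFP tumors, against 136 and 124 in the EGFP tumors, a log2 difference of 0.69 (SE 0.21, adjusted p = 0.268). The muscle-type subunit Pfkm read 140 and 122 against 94.5 and 84.2, a log2 difference of 0.48 (SE 0.17, adjusted p = 0.321). In contrast the platelet-type subunit Pfkp read 468 and 501 against 532 and 724, a log2 difference of -0.35 (SE 0.19, adjusted p = 0.440).

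Both probe sets of Pfkl lay higher (log2 differences 0.69 and 0.66) and both of Pfkp lower (-0.35 and -0.41).

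The aldolases split the sugar into a pair of three-carbon units. Aldoc read 153 and 139 in the p62-EGFP tumors, against 101 and 71.5 in the EGFP tumors (log2 difference 0.67, SE 0.21, adjusted p = 0.271). Aldoc lies on chromosome 11, whose other 696 tested genes had a median log2 difference of 0.30. Aldoa, the form abundant in muscle, read 443 and 245 in the p62-EGFP tumors, against 79.5 and 421 in the EGFP tumors. EGFP tumor 1 was the lowest of the 4 and the others lay within the same range, so the log2 difference of 0.76 (SE 0.73, adjusted p = 0.648) was -0.34 without EGFP tumor 1 and 1.86 without EGFP tumor 2.

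Skeletal muscle transcripts differed between tumors of the same group. The summed signal of 17 muscle genes was 5881 and 169 in the p62-EGFP tumors, against 136 and 982 in the EGFP tumors. Of 9 tested muscle genes all 9 were higher in p62-EGFP in the mean, and 1 had the groups apart (background 26.4%). The list includes the muscle forms of 2 glycolytic enzymes, both highest in p62-EGFP tumor 1: Eno3, muscle enolase, read 216 and 89.1 against 60.3 and 83.1, and Pgam2, muscle phosphoglycerate mutase, 64.1 and 1.8 against 1.6 and 3.3. Without p62-EGFP tumor 1 the log2 differences of Pgk1, Ldha, Egln3 and Bnip3 were 0.86, 0.59, 0.87 and 0.95. The part of muscle in the members' values was not tested.

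Among the enzymes that act after the aldolases, the differences varied in size. Triose phosphate isomerase, Tpi1, read 2075 and 1842 in the p62-EGFP tumors, against 1968.5 and 1399 in the EGFP tumors, so the groups overlapped. Without EGFP tumor 2 its log2 difference of 0.23 turned to -0.01. Gapdh, glyceraldehyde phosphate dehydrogenase, read 3610.4 and 3260.1 against 3399 and 3089 in its brightest control probe set, also an overlap. Pgam1, phosphoglycerate mutase, read 630.2 and 643 against 519 and 567.5, which put both p62-EGFP tumors higher by a narrow margin (log2 difference 0.22, SE 0.13, adjusted p = 0.473).

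Pkm, pyruvate kinase, was nearly level at 1091 and 1079 against 946 and 1114.5 (log2 difference 0.08, SE 0.13, adjusted p = 0.796), and -0.04 without EGFP tumor 1. Eno2, an enolase best known from neurons, read 33.6 and 27.9 against 54.6 and 23.2, within the spread of the EGFP tumors. Ldhb, the lactate dehydrogenase subunit that favours the use of lactate, read 201 and 183 against 155 and 155. Both p62-EGFP tumors were above both EGFP tumors, by 1.24-fold in the mean (log2 difference 0.28, SE 0.16, adjusted p = 0.454), and its 4 probe sets gave log2 differences between 0.22 and 0.28.

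Among the transporters and gatekeepers, the lactate exporter Slc16a3, known as MCT4, had the widest relative difference. It read 44.6 and 53.4 in the p62-EGFP tumors, against 4.9 and 16 in the EGFP tumors. The level is close to background, and without a filter on dim probe sets its log2 difference was 1.33 (adjusted p = 0.299). It lies on chromosome 11, as Aldoc and P4ha2 do. The glucose transporter Slc2a1, known as GLUT1, read 132 and 169 against 117 and 130.2, a log2 difference of 0.25 (SE 0.19, adjusted p = 0.573) in its brightest probe set. Its other 2 probe sets gave 0.07 and 0.02. Slc16a1, known as MCT1, a carrier that moves lactate in or out, read 528 and 533.5 against 442 and 463 (log2 difference 0.22, SE 0.13, adjusted p = 0.480).

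Pdk1, a kinase that keeps pyruvate out of the mitochondrial citric acid cycle, read 335 and 347 in the p62-EGFP tumors, against 333 and 182 in the EGFP tumors. EGFP tumor 1 was level with the p62-EGFP tumors, so the groups were apart only by 335.2 against 333.4. The log2 difference of 0.44 was 0.03 without EGFP tumor 2 and 0.85 without EGFP tumor 1. The second probe set of Pdk1 overlapped, at 193 and 206 against 221 and 142 (log2 difference 0.16, SE 0.24, limma adjusted p = 0.780). Pfkfb3, which makes the activator of phosphofructokinase, read 25 and 33.9 against 22 and 107. Its second probe set was too dim to be tested and overlapped, at 15.9 and 15.1 against 8.8 and 23.3. In the brightest probe set EGFP tumor 2 alone was high. The 13 macrophage genes were high in the same tumor, and the part of those cells in the value of Pfkfb3 was not tested.

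The oxygen-sensing genes showed no common direction. Hif1a read 560.2 and 620.4 in the p62-EGFP tumors, against 559 and 763 in the EGFP tumors, and its log2 difference was -0.14 (SE 0.19, adjusted p = 0.740). Its sign was positive without EGFP tumor 2 (0.07) and when its probe sets were averaged (0.00). Egln1, the main prolyl hydroxylase in well-oxygenated cells, read 229.7 and 188 against 243 and 231, a log2 difference of -0.18 (SE 0.17, adjusted p = 0.655) with both p62-EGFP tumors below both EGFP tumors. Egln1 lies on chromosome 8, whose other 416 tested genes had a median log2 difference of -0.22. Egln3, the inducible form, stood higher, as described with the promoters.

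The other hypoxia-induced genes spread widely. Ndrg1, a stress-response gene that HIF induces, read 534 and 673.5 in the p62-EGFP tumors, against 465 and 417 in the EGFP tumors (log2 difference 0.43, SE 0.17, adjusted p = 0.343). All 5 of its probe sets had the groups apart, with log2 differences from 0.36 to 0.65. Mif, a secreted cytokine, read 1167 and 1183 against 1014 and 787 (log2 difference 0.39, SE 0.15, adjusted p = 0.342).

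Kdm3a, a histone demethylase that HIF induces, read 643 and 615 in the p62-EGFP tumors, against 534 and 467 in the EGFP tumors (log2 difference 0.32, SE 0.14, adjusted p = 0.368). Ddit4, also called REDD1, which restrains mTORC1, read 327 and 526 against 269 and 282. The groups were apart, but the p62-EGFP tumors were also far from each other (log2 difference 0.57, SE 0.25, adjusted p = 0.368). P4ha1, a subunit of the hydroxylase that matures collagen, read 141.5 and 130.4 against 129 and 106, with a log2 difference of 0.19 (SE 0.18, adjusted p = 0.638).

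Some well-known hypoxia genes did not have both p62-EGFP tumors above both EGFP tumors. Vegfa, the growth factor of blood vessels, read 67.6 and 90.7 in the p62-EGFP tumors, against 102.5 and 56.3 in the EGFP tumors, a log2 difference of 0.03 (SE 0.29, adjusted p = 0.972). P4ha2, a second collagen hydroxylase subunit, read 84.1 and 102 against 114 and 44.8, and Higd1a, a mitochondrial protein, 350.1 and 321 against 328 and 383. Adm, the vasodilator adrenomedullin, read 18.4 and 28.4 against 22.2 and 20.9, and Car9, an acid-handling carbonic anhydrase, 20.0 and 20.1 against 26.4 and 23.7. Both genes were too dim to be tested, and for Car9, a widely used marker of hypoxia, both p62-EGFP tumors read below both EGFP tumors. Without EGFP tumor 2 the log2 differences of Vegfa, P4ha2 and Higd1a turned to -0.33, -0.26 and 0.03, and that of Vegfa was -0.15 without p62-EGFP tumor 2.

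Endothelial transcripts were read beside Vegfa. The summed signal of 11 endothelial genes was 272.5 and 338 in the p62-EGFP tumors, against 486 and 704 in the EGFP tumors. Of the 8 tested, 6 had both p62-EGFP tumors below both EGFP tumors (background 22.1%), 4 read lower at an unadjusted limma p of 0.05 (background 6.3%) and 0 passed after adjustment. The groups overlapped for the other 2, Tek and Flt1, with log2 differences of 0.08 and 0.20. Of the 4 with an unadjusted limma p under 0.05, Cdh5, Kdr and Cldn5 lay below the cut of the filter on dim probe sets in both p62-EGFP tumors. They were tested only through their EGFP values, which favours such counts. The part of endothelial cells in the members' values was not tested.

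Set side by side, the glycolytic enzymes and the other members had the same median. The log2 difference was 0.27 in the median for 14 enzymes and 0.27 for 16 other members, against 0.01 for all 7846 tested genes. The range was from -0.35 to 0.92 for the enzymes and from -0.60 to 0.85 for the others. The groups were apart, higher in p62-EGFP, for 7 of 14 enzymes and 10 of 16 others (background 26.4% of all tested genes). An unadjusted limma p under 0.05, with p62-EGFP higher, was found for 5 enzymes and 4 others (background 8.5%). By role the medians were 0.24 for 4 transporters and gatekeepers, -0.14 for 3 oxygen-sensing genes and 0.32 for 9 other hypoxia-induced genes.

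The medians were above 0 in every pairing of a p62-EGFP with an EGFP tumor, and their order changed with the pairing. For the enzymes the median was 0.38 and 0.34 in p62-EGFP tumor 1 against EGFP tumors 1 and 2, and 0.31 and 0.20 in p62-EGFP tumor 2. For the other members it was 0.14 and 0.28 in p62-EGFP tumor 1 and 0.21 and 0.47 in p62-EGFP tumor 2. Enzymes were thus ahead in 3 pairings and the other members in the pairing of both second tumors. All tested genes had medians between -0.02 and 0.07. Without EGFP tumor 1 the median of the other members was 0.42, and it was 0.21 without EGFP tumor 2.

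**Figure D3:**
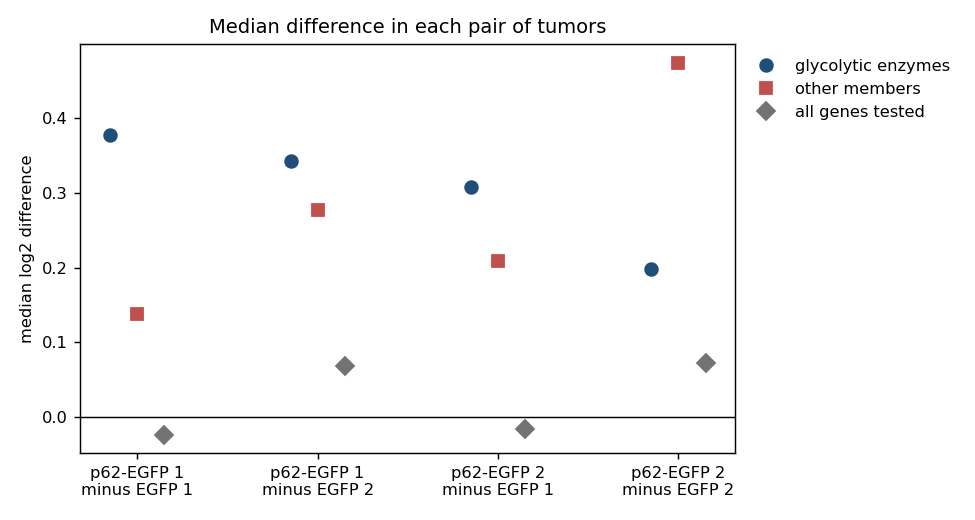
Median log2 difference in each of the 4 pairings of a p62-EGFP tumor with an EGFP tumor, for the glycolytic enzymes (blue circles), the other members (red squares) and all tested genes (grey diamonds). Both member groups lie between 0.14 and 0.47 and above all genes in each pairing.

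The EGFP tumors differed more from each other than the p62-EGFP tumors did. The absolute log2 gap between the tumors of a group had a median of 0.14 for the p62-EGFP pair and 0.30 for the EGFP pair over the 30 members. All tested genes had medians of 0.14 and 0.27. The EGFP gap was the wider for 22 of 30 members (73.3%) and for 68.7% of all tested genes. EGFP tumor 1 stood above EGFP tumor 2 for P4ha2, Eno2, Pdk1 and Vegfa, by 1.10, 0.85, 0.82 and 0.71 on the log2 scale. It stood below for Aldoa, Pfkfb3 and Hk2, with differences of -2.19, -1.70 and -0.69. For Ddit4 and Pfkl the p62-EGFP pair was the wider, with gaps of 0.66 and 0.44 against 0.06 and 0.12.

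**Figure D4:**
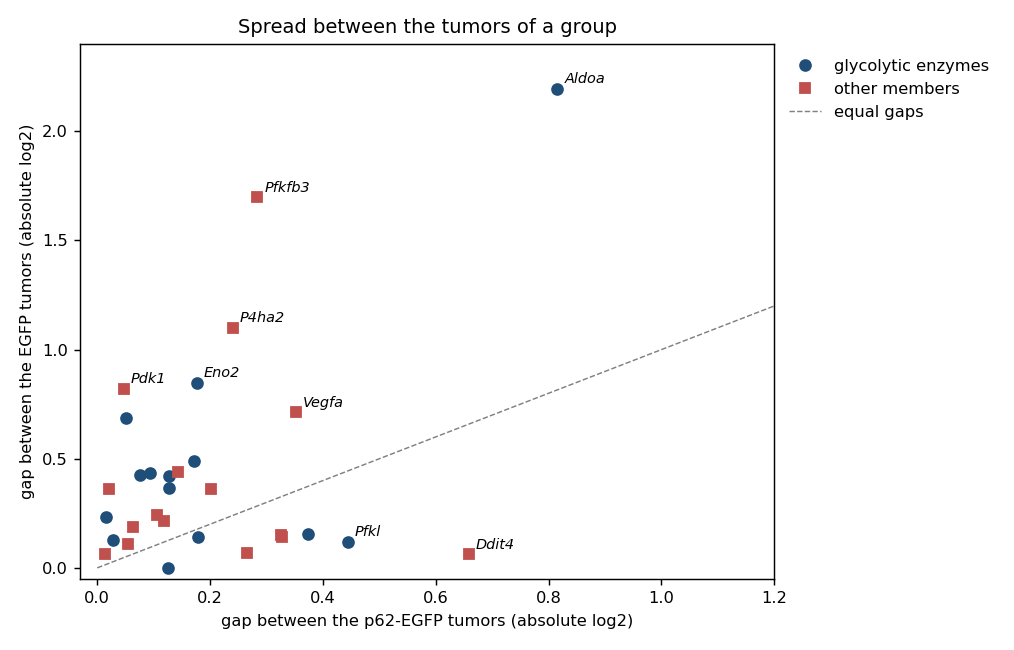
Absolute log2 gap between the p62-EGFP tumors (horizontal axis) and between the EGFP tumors (vertical axis) for each tested member; the dashed line marks equal gaps. Aldoa, Pfkfb3 and P4ha2 lie highest, with EGFP gaps of 2.19, 1.70 and 1.10, and Ddit4 lies farthest below the line.

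For genes with several tested probe sets the readings could be compared within the gene. There were 14 such members with 39 tested probe sets, and all probe sets of a gene had the same sign for 13 of them, the exception being Hif1a. The brightest Pgk1 probe set is of a type marked as able to bind related transcripts, and Pgk1 has processed copies in the genome. Its probe set without that mark read 1634 and 1717 in the p62-EGFP tumors, against 916 and 1246 in the EGFP tumors, a log2 difference of 0.64 (SE 0.17). The remaining one overlapped, at 893 and 1109.5 against 294 and 1132. The second probe set of P4ha1 gave a log2 difference of 0.51 (SE 0.22), wider than its brightest. The probe sets of Aldoa are all of the type open to related transcripts.

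**Figure D5:**
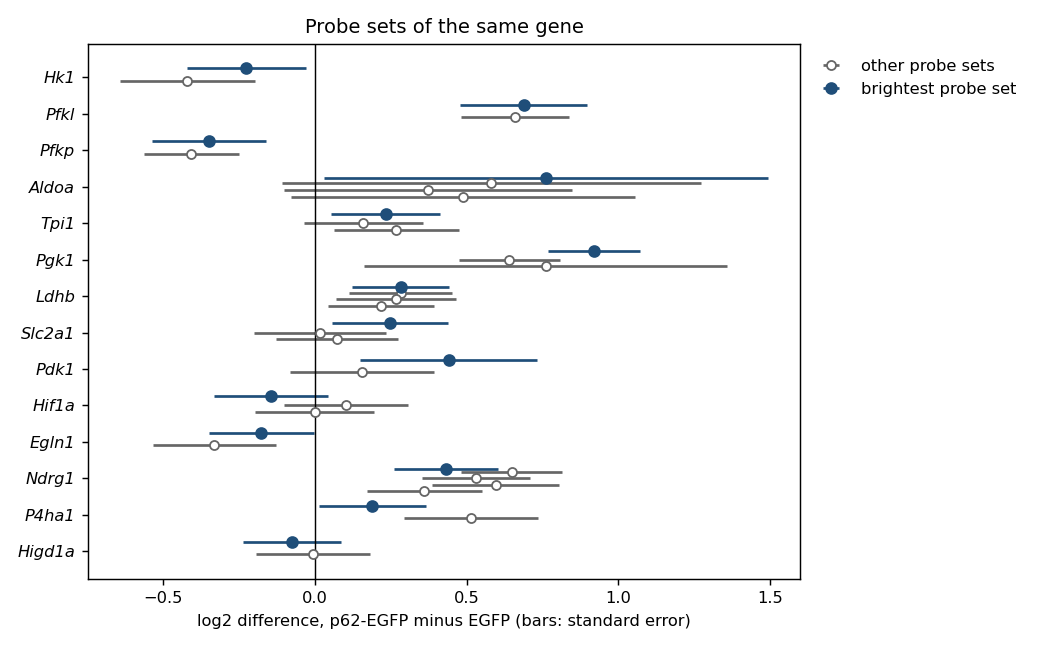
Log2 difference (p62-EGFP minus EGFP) with its standard error for each tested probe set of the 14 members with more than 1; filled points are the brightest probe set of a gene and open points its others. Pfkl, Ndrg1, Ldhb and Pgk1 lie to the right of 0 and Pfkp, Hk1 and Egln1 to the left with all their probe sets, and those of Hif1a lie around 0.

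Other genes of the same pathways were read from 2 further lists. Of 34 further genes of glucose metabolism, 16 were tested, 0 passed after adjustment, and at an unadjusted limma p of 0.05 there were 2 higher and 0 lower (background 8.5% and 6.3%). Their median log2 difference was 0.02. Slc2a3, the transporter GLUT3, read 239.7 and 260.0 in the p62-EGFP tumors, against 162.5 and 180 in the EGFP tumors (adjusted p = 0.280). Pdk4, a second pyruvate dehydrogenase kinase, read 231 and 241 against 188 and 126 (adjusted p = 0.343), and Bpgm, which makes bisphosphoglycerate, 123 and 152 against 105 and 87.7 (adjusted p = 0.360).

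Of 36 further gene symbols of HIF signalling or its targets, 22 were tested and 0 passed after adjustment. Slc2a3 and the dim Pfkfb2 and Gys1 are in both lists, and Flt1 is also in the endothelial one. At an unadjusted limma p of 0.05 there were 6 higher and 2 lower (background 8.5% and 6.3% of all tested genes). The median log2 difference was 0.18, against 0.01 for all tested genes. The smallest p belonged to Lox, which cross-links collagen, at 109 and 122 in the p62-EGFP tumors, against 22.9 and 25.3 in the EGFP tumors (log2 difference 1.71, SE 0.18, adjusted p = 0.107). Both EGFP values of Lox lay below the cut of the filter on dim probe sets, which it passed through its p62-EGFP values. Without that filter its limma adjusted p was 0.265. Next were Tfrc, the transferrin receptor, at 621 and 608 against 286 and 356 (adjusted p = 0.188), and Jmjd6, an oxygen-dependent hydroxylase, at 205 and 224 against 117 and 92.2 (adjusted p = 0.196). Jmjd6 also lies on chromosome 11. The 2 that read lower were Cited2, an inhibitor of HIF-driven transcription, at 240.4 and 319 against 397 and 482 (limma adjusted p = 0.286), and Plod1, a collagen hydroxylase, at 64.5 and 65.5 against 91.4 and 95.5 (adjusted p = 0.335).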

How the data were processed

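Per the labels, 6 ug of RNA from each of 4 tumors was made into biotin-labelled cRNA and read on a Mouse Genome 430A 2.0 array of Affymetrix. The files hold deposited signal intensities on a linear scale, made with MAS5 per the submitters' processing notes, whose settings and genome build are not given in the sources used here. As deposited, each array had a trimmed mean of 150.04, and the values were not normalized again. Of 22690 probe sets, 64 controls were left out. Genes were named from probe sets with 1 symbol. Signals were taken as log2(signal + 16), which understates fold changes of dim genes. Probe sets with a mean at or above the 40th percentile (13576) were compared, p62-EGFP minus EGFP, with limma's lmFit and eBayes (limma 3.58.1, R 4.3.3; two-sided p, Benjamini-Hochberg, threshold 0.05), a fit checked on simulated data. The series' design text names Genes@Work, which was not used here. Lists are described by counts and medians, without set tests. The members and lists were chosen with earlier results of these data known. Named genes are all members with values, and the 3 genes of each further list with the smallest p; Eno3, Pgam2, Cited2 and Plod1 were named, and the epithelial list added, after the values were seen. The erythroid list had 0 tested genes of 3 measured, and the adipocyte list 2 of 6, Fabp4 and Lpl, both lower in p62-EGFP in the mean, while the dim Adipoq, Retn and Cidec had both p62-EGFP tumors above both EGFP tumors. The correlation between same-numbered tumors' deviations was 0.08, so the numbers were not taken to pair them. Alternatives were pseudocounts of 1 and 64, other filters, quantile normalization, median centring, no variance trend, averaged probe sets, a replicate block, subtraction of chromosome medians and leaving out each tumor. Promoters came from RefSeq (GRCm38.p6). No build is given for the arrays, so the only coordinates printed are those of the promoters.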

Additional observations from a re-analysis of the deposited data

How the results depend on the processing

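Over 9 alternatives that kept all 4 tumors, 0 members passed, 29 of 30 kept their sign wherever tested (Hif1a did not) and the medians of both member groups stayed positive. With the median of each chromosome subtracted, the median was 0.37 for the glycolytic enzymes and 0.28 for the other members, which both had 0.27 without it. The count of probe sets past the threshold was 12, against 7 with the filter at the 60th percentile, 6 with no filter, 1 when probe sets of a gene were averaged, and 37 with the replicate number as a block, which changed no call among the members; the cause was not tested. Leaving out each tumor in turn gave 0 to 2835 probe sets, 0 to 11 members higher and 0 to 2 lower. It gave medians of 0.23 to 0.35 for the enzymes and 0.21 to 0.42 for the other members, and 22 members kept their sign throughout. Fits without an EGFP tumor rest on the spread of the p62-EGFP pair. Dim signals limit Slc16a3, Adm and Car9, and Egln3 in the EGFP tumors. They also limit Pfkfb3 and Eno2, each of which passed the filter only through its highest EGFP tumor.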
